A study of Mus musculus with 8 samples.

Results

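Expression of 10 collagen-modifying and crosslinking genes, of 18784 named genes on the arrays, was compared between unloaded and weight bearing mouse muscle. They were listed by enzyme family, with no threshold on their values but with earlier results of these data known: the prolyl 4-hydroxylase alpha subunits P4ha1, P4ha2 and P4ha3, the lysyl hydroxylases Plod1, Plod2 and Plod3, the lysyl oxidases Lox, Loxl1 and Loxl2, and the chaperone Serpinh1. Each was represented by 1 probe set, so all 10 were measured and none was removed by a filter. The study compared gastrocnemius and plantaris muscle of female C57BL/6J wild type mice, 7 weeks old, whose hind limbs had been kept off the cage floor for 5 days (hind limb unloading, HU, 4 arrays) with the same muscles of mice in full weight bearing (WB, 4 arrays). Each array carried an independent total RNA sample, and the labels describe each sample as coming from a mouse. Hind limb unloading is a model of disuse atrophy. Whole muscles were extracted, so RNA of the fibres, connective tissue, vessels and blood cells was measured together.

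Collagen is built inside the cell by a line of enzymes before it becomes a fibre outside it. Prolyl 4-hydroxylases in the endoplasmic reticulum hydroxylate proline residues so that the triple helix is stable at body temperature, lysyl hydroxylases modify lysine residues, and the chaperone HSP47, encoded by Serpinh1, holds the folded procollagen until it leaves for the Golgi. After secretion, the copper-dependent lysyl oxidases convert lysine and hydroxylysine side chains to reactive aldehydes that form the covalent crosslinks of collagen and elastin. In skeletal muscle this matrix surrounds the fibres and carries force to the tendon, and it is made mainly by fibroblasts and related stromal cells rather than by the muscle fibres.

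The values are log2 expression after robust multi-array analysis (RMA), so a difference of 1 is a 2-fold difference. Array medians lay between 6.28 and 6.33. Pearson's r was 0.996 to 0.997 for 2 arrays of the same group and 0.992 to 0.994 across the groups. The 8 markers of skeletal muscle fibres, the labelled tissue, were far above these medians, with a list mean per array of 12.69 to 12.72 in unloaded and 12.74 to 12.80 in weight bearing muscle. Groups were compared with limma, and a gene counts as changed where its p, adjusted by Benjamini-Hochberg over 21212 probe sets, was under 0.05.

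Most of the 10 genes were expressed at a lower level in unloaded muscle. By limma, 7 of them were lower and 0 were higher, while 11.0% of all probe sets were lower and 12.8% higher. Serpinh1 (2.10-fold), Loxl2 (1.91-fold) and P4ha1 (1.90-fold) fell the most, Loxl1 fell 1.58-fold and Plod2 1.55-fold, and Plod1 and P4ha2 fell by 1.24 and 1.17-fold. P4ha3, Plod3 and Lox did not pass the test. The changes of all 10 genes were negative, and 7 had an unadjusted p under 0.05. The median log2 change of the 10 genes was -0.47, against 0.04 over all probe sets. In the 7 called genes every unloaded array was below every weight bearing array. Such a separation downward was seen in 12.0% of all probe sets, and a separation in either direction in 27.5%. For comparison, the methods' t-test, run on the same values with Benjamini-Hochberg adjustment, also called 7 lower and 0 higher, with 6.48% of all probe sets lower and 6.57% higher. In whole muscle, fewer cells of a type and less RNA per cell cannot be told apart.

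**Figure D1:**
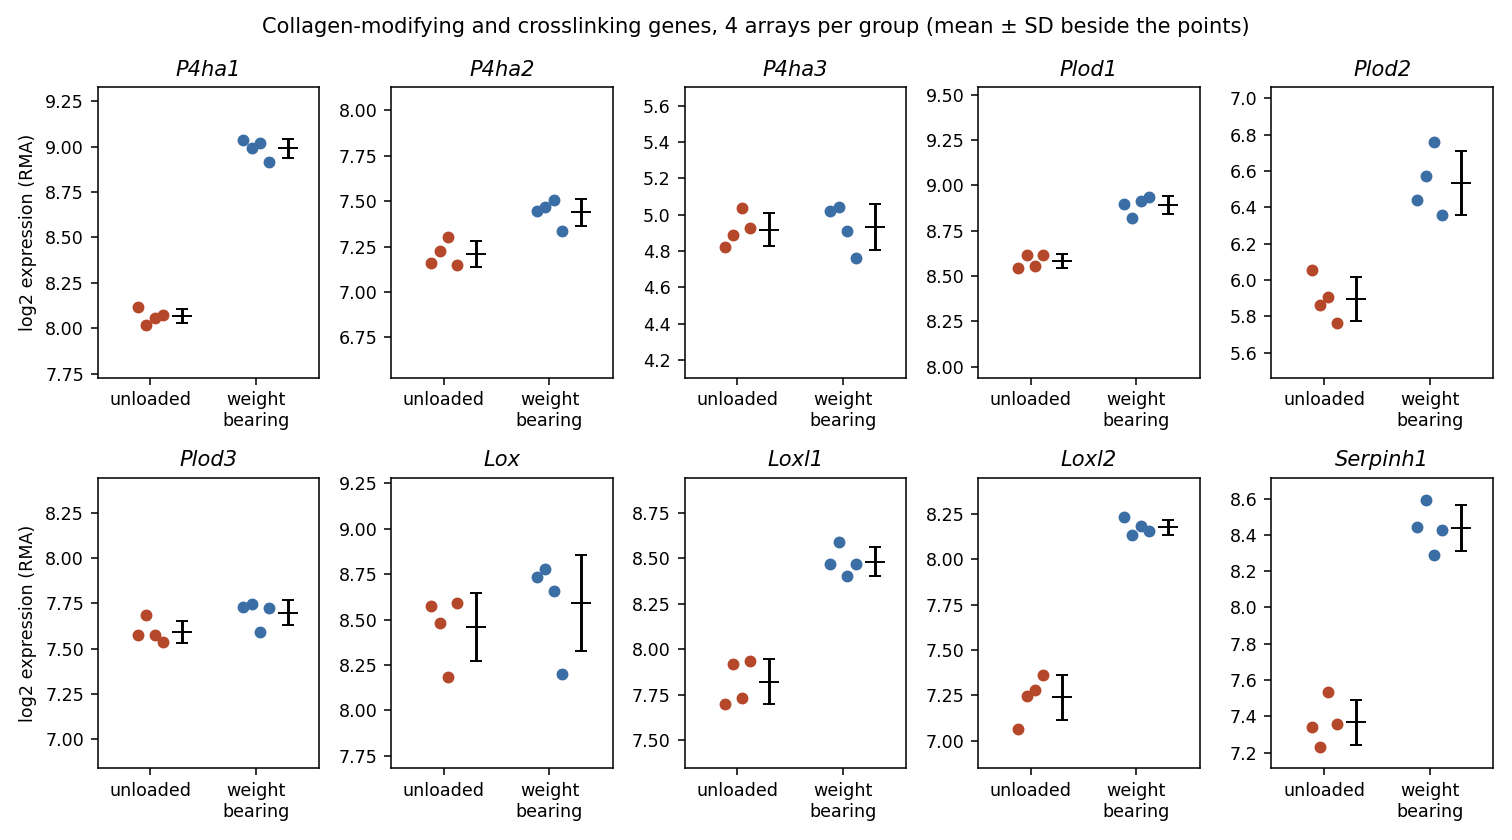
Log2 expression (vertical axis, each panel spanning the same range of log2 units) of the 10 genes in 4 unloaded arrays (left, red) and 4 weight bearing arrays (right, blue), with mean ± SD beside the points. The groups are far apart in P4ha1, Loxl2 and Serpinh1, and overlap in P4ha3, Plod3 and Lox.

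The prolyl 4-hydroxylases were unequally affected. P4ha1 encodes the catalytic alpha subunit of the main collagen prolyl 4-hydroxylase in most tissues. Its log2 values were 8.11, 8.02, 8.06 and 8.07 in the 4 unloaded arrays, against 9.04, 8.99, 9.02 and 8.91 in the 4 weight bearing arrays. The groups were separated by 0.80, many times the spread within either group. The means were 8.07 ± 0.04 in unloaded and 8.99 ± 0.05 in weight bearing muscle (SD, n = 4 each), a log2 change of -0.92 ± 0.05 (SE, limma adjusted p = 4.57e-06), so that unloaded muscle held 52.7% of the weight bearing signal. It was the 83rd largest fall of the 21212 probe sets.

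P4ha2, an alternative alpha subunit that is prominent in chondrocytes and endothelium, changed much less. Its log2 values were 7.16, 7.23, 7.30 and 7.15 in unloaded muscle, against 7.45, 7.47, 7.51 and 7.33 in weight bearing muscle. The groups did not overlap, but the highest unloaded array (replicate 3) lay only 0.03 below the lowest weight bearing array (replicate 4). The log2 change was -0.23 ± 0.06 (SE, limma adjusted p = 0.0150). P4ha3, the third alpha subunit, was dim on these arrays, with a mean level at the 27.4th percentile of all probe sets. Its values were 4.82, 4.89, 5.03 and 4.93 in unloaded and 5.02, 5.04, 4.91 and 4.76 in weight bearing muscle, fully interleaved. The change of -0.02 had a 95% interval of -0.17 to 0.14 (limma adjusted p = 0.891), which does not show that the level was the same.

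P4hb, the beta subunit that binds every alpha subunit and is also the general protein disulfide isomerase, went the other way. This gene was singled out after its values were seen. Its log2 values were 10.38, 10.42, 10.40 and 10.52 in unloaded muscle, against 10.23, 10.17, 10.17 and 10.13 in weight bearing muscle. All unloaded arrays were higher, and the log2 change was 0.26 ± 0.05 (SE, limma adjusted p = 0.00467). P4hb was thus higher, while of the alpha subunits P4ha1 and P4ha2 were lower and P4ha3 was not called.

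The 5′ flanks of the prolyl 4-hydroxylase gene with the larger fall, of the one with the smaller fall, and of Serpinh1, which fell the most of the 10 genes, are shown to let the reader compare the DNA just before the annotated start of each (RefSeq, GRCm38.p6). RefSeq promoter windows of 300 bases were matched by gene identifier for 6 of the 10 genes, P4ha1, P4ha2, P4ha3, Plod1, Plod3 and Serpinh1, and each sequence is the part of the window that lies before the outermost annotated start of the gene. In P4ha1 that start lies ahead of the one the window was set on, so 151 bases are shown and 149 are not. Capitals mark ACGTG and GCGTG, cores that hypoxia-inducible factors can bind, and GGGCGG, the GC box, on either strand.
P4ha1, chr10:59323046-59323196, plus strand: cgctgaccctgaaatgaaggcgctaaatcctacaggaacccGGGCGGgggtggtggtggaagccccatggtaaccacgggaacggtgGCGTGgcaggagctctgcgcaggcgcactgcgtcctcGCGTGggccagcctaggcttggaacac
P4ha2, chr11:54100674-54100923, plus strand: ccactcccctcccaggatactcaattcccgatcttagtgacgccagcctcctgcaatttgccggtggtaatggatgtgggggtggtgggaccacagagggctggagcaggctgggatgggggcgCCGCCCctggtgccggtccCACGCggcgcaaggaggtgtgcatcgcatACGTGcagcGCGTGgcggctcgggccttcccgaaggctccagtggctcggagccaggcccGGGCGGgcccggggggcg
Serpinh1, chr7:99353240-99353489, minus strand: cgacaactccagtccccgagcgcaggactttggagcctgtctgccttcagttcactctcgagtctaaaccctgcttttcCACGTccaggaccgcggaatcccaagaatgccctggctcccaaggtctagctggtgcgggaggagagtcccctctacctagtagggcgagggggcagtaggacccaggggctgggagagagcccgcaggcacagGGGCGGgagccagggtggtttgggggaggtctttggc
Over the whole 300-base windows and both strands, ACGTG was found in 4 of the 6 windows and in 19.6% of all 32851 windows of that length, GCGTG in 4 of 6 and 32.4%, and GGGCGG in 5 of 6 and 35.7%. The CCAAT box, CCAAT, was found in 1 of 6 (Plod3) and in 37.4% of all windows, and GAANNTTC, a heat shock element core, in 1 of 6 (Plod1) and 7.86%. The NF-kB consensus, the motif of the transcription factor family that the study is about, was found in 1 of 6 (Serpinh1) and in 4.51% of all windows. Both ACGTG and GCGTG were found in the windows of P4ha1, P4ha2 and Plod3, the last of which was not called. Of these cores, Serpinh1 had ACGTG only, Plod1 GCGTG only and P4ha3 neither. The ACGTG of P4ha1 lies in the bases not shown.

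The lysyl hydroxylases differed among themselves as well. Plod1 encodes lysyl hydroxylase 1, which acts on lysines in the helical part of fibrillar collagens. Its log2 values were 8.54, 8.61, 8.56 and 8.62 in unloaded muscle, against 8.90, 8.82, 8.92 and 8.94 in weight bearing muscle. The change was modest, but the arrays of each group lay close together, and the log2 change was -0.31 ± 0.05 (SE, limma adjusted p = 0.00129). Plod2 encodes lysyl hydroxylase 2, the enzyme of the short telopeptides, whose activity steers collagen towards the more stable pyridinoline crosslinks. Its values were 6.06, 5.86, 5.91 and 5.76 in unloaded muscle, against 6.44, 6.57, 6.76 and 6.36 in weight bearing muscle. Plod2 had a larger mean change than Plod1, with a log2 change of -0.64 ± 0.09 (SE, limma adjusted p = 9.58e-04), and varied more between arrays of a group (SD 0.12 in unloaded and 0.18 in weight bearing muscle).

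Plod3 encodes lysyl hydroxylase 3, which also attaches sugars to hydroxylysine. Its values were 7.57, 7.68, 7.57 and 7.54 in unloaded muscle, against 7.73, 7.74, 7.59 and 7.72 in weight bearing muscle. The groups overlapped, since weight bearing replicate 3 was below unloaded replicate 2. The log2 change of -0.11 ± 0.05 (SE, 95% interval -0.22 to 0.01) did not pass the test (limma adjusted p = 0.181).

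Of the lysyl oxidases, the paralogs fell and Lox itself did not pass the test. Loxl2, which oxidises type IV collagen among other substrates, had log2 values of 7.07, 7.25, 7.28 and 7.36 in unloaded muscle, against 8.23, 8.13, 8.19 and 8.16 in weight bearing muscle. Unloaded muscle held 52.2% of the weight bearing signal, and the log2 change was -0.94 ± 0.06 (SE, limma adjusted p = 1.46e-05). Loxl1, known from mouse knockouts for its part in elastic fibre upkeep, had values of 7.70, 7.92, 7.73 and 7.94 in unloaded muscle, against 8.47, 8.59, 8.40 and 8.47 in weight bearing muscle. The log2 change was -0.66 ± 0.07 (SE, limma adjusted p = 1.61e-04), and the groups were 0.47 apart.

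Lox, the lysyl oxidase of fibrillar collagen and elastin, was the most variable of the 10 genes. Its values were 8.57, 8.48, 8.18 and 8.59 in unloaded muscle, against 8.73, 8.78, 8.66 and 8.20 in weight bearing muscle. In each group 1 array was low, unloaded replicate 3 and weight bearing replicate 4, and the groups overlapped. The log2 change was -0.13 ± 0.13 (SE, limma adjusted p = 0.483), with a 95% interval of -0.42 to 0.16, so that a fall of the size seen in Loxl1 lay outside the interval. Without weight bearing replicate 4 the change was -0.26 (adjusted p = 0.0819), and without unloaded replicate 3 it was -0.04 (adjusted p = 0.843).

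Serpinh1 had the largest change of the 10 genes. Its log2 values were 7.34, 7.23, 7.53 and 7.36 in unloaded muscle, against 8.44, 8.59, 8.29 and 8.43 in weight bearing muscle. The lowest weight bearing array was 0.75 above the highest unloaded array. The means were 7.37 ± 0.12 in unloaded and 8.44 ± 0.13 in weight bearing muscle (SD, n = 4 each), and the log2 change was -1.07 ± 0.08 (SE, limma adjusted p = 2.00e-05). Unloaded muscle held 47.6% of the weight bearing signal, and the fall was the 49th largest of all probe sets.

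**Figure D2:**
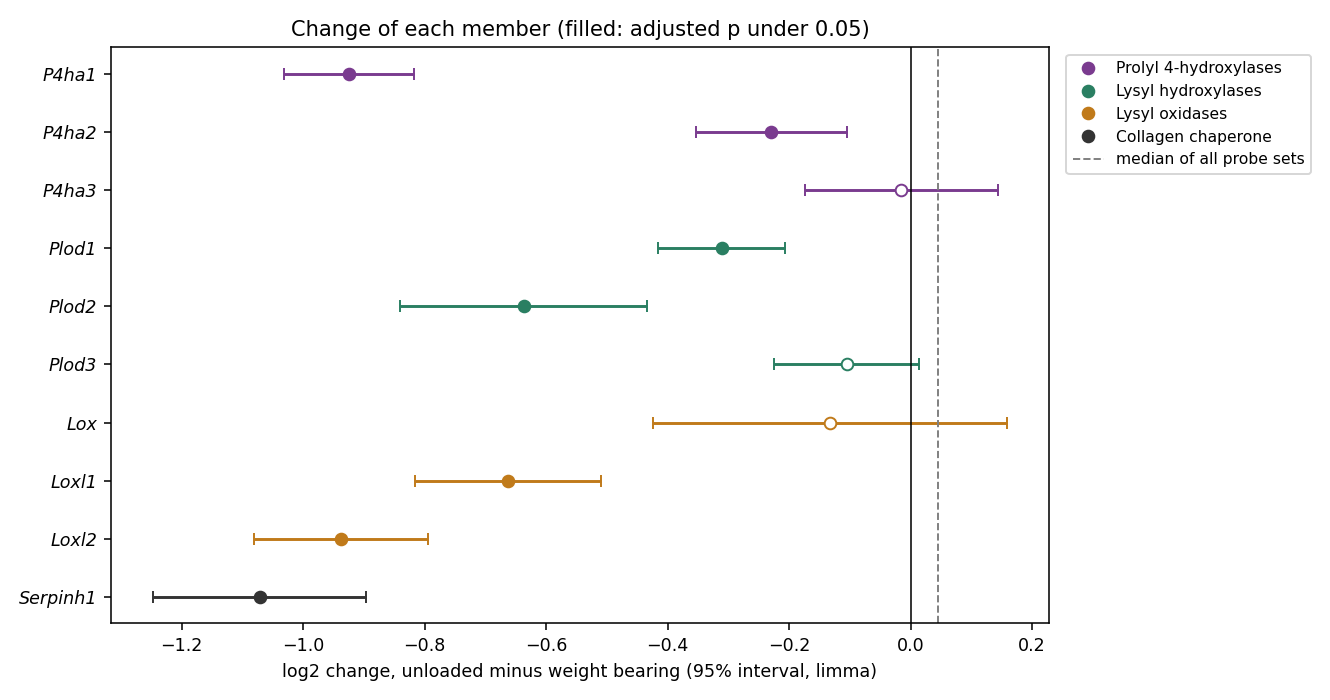
Log2 change (unloaded minus weight bearing, horizontal axis) of each of the 10 genes with its 95% interval from limma, coloured by enzyme family, filled where the adjusted p was under 0.05. The 3 open points, P4ha3, Plod3 and Lox, have intervals that include 0, and the dashed line marks the median of all probe sets at 0.04.

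No single array set the pattern. Over the 10 genes, each of the 4 unloaded arrays was the highest of its group for between 1 and 4 genes and the lowest for between 1 and 4. Among weight bearing arrays, replicate 2 was the highest for 5 genes and replicate 4 the lowest for 5, and replicate 4 lay on average 0.09 below its group mean. With any 1 of the 8 arrays left out, limma called 7 of the 10 genes lower and 0 higher.

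Whether 2 genes of a family changed unequally was tested on the difference of their log2 values within each array, which any scaling common to an array leaves unchanged. There were 9 such pairs, 3 in each family, and each was tested with a two-sided exact permutation test over the 70 splits of the 8 arrays, whose smallest possible p is 0.0286. Of the 9 pairs, 7 had a p adjusted over the 9 pairs under 0.05, among them 2 pairs with P4ha3. P4ha3 was about as dim as Gulo, a vitamin C synthesis gene of liver (27.4th and 26.8th percentile of mean level), and whether it was above background was not tested. Without its pairs, 5 of 7 remained. P4ha1 fell by 0.69 ± 0.05 more than P4ha2 on the log2 scale (SE, exact p = 0.0286, adjusted p = 0.0367). P4ha1 minus P4ha2 lay between 0.76 and 0.95 in unloaded arrays and between 1.51 and 1.59 in weight bearing arrays. P4ha1 fell by 0.91 ± 0.07 more than P4ha3, and P4ha2 by 0.21 ± 0.05 more than P4ha3 (adjusted p = 0.0367 for both, exact permutation test). After quantile normalization the difference of P4ha2 from P4ha3 was -0.11, with an adjusted p of 0.114 by the exact test.

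Plod2 fell by 0.53 ± 0.14 more than Plod3, and Plod1 by 0.21 ± 0.06 more than Plod3 (SE, adjusted p = 0.0367 for both, exact permutation test). For Plod1 and Plod2 the groups overlapped, and the difference of 0.33 ± 0.12 had an exact p of 0.0571. Lox minus Loxl1 was 0.53 ± 0.16 and Lox minus Loxl2 0.80 ± 0.18 higher in unloaded than in weight bearing arrays (adjusted p = 0.0367 for both, exact permutation test), which is a measured difference between Lox and its paralogs although Lox alone did not pass. Loxl1 and Loxl2 differed by 0.27 ± 0.07 (exact p = 0.0571, adjusted p = 0.0571).

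**Figure D3:**
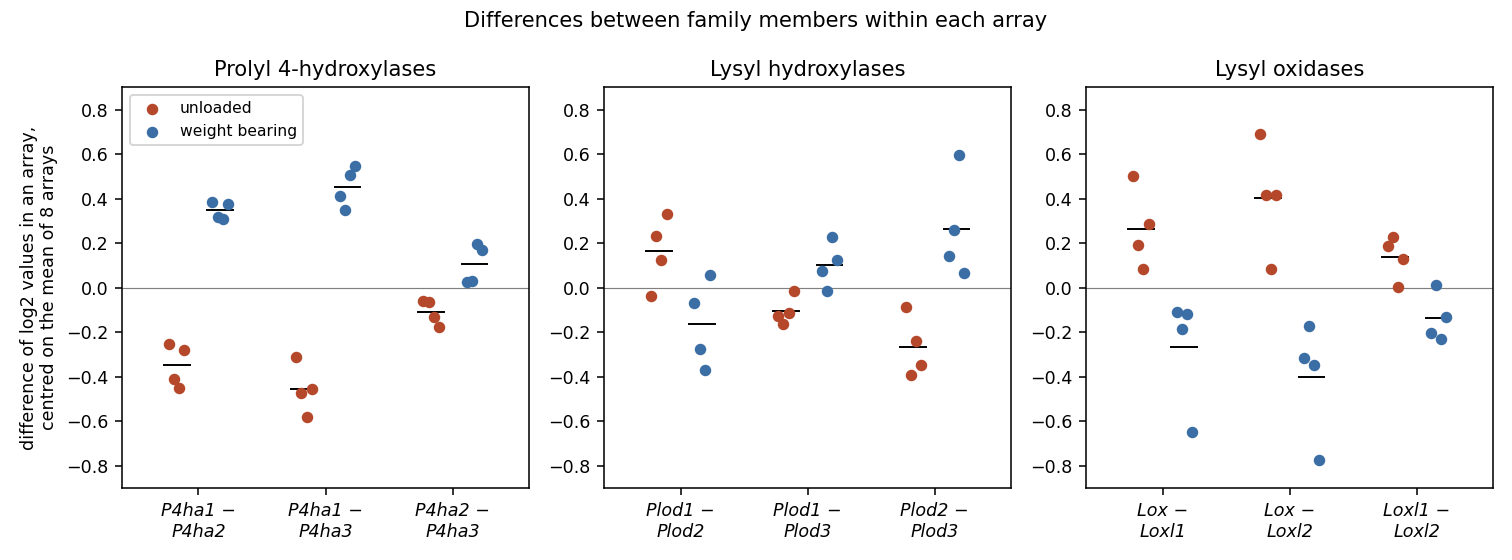
Difference of the log2 values of 2 family members within each array, centred on the mean of the 8 arrays (vertical axis), for 4 unloaded arrays (red, left of each pair) and 4 weight bearing arrays (blue, right), with bars at the group means. The groups are separate in 7 of 9 pairs and overlap for Plod1 minus Plod2 and for Loxl1 minus Loxl2.

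The 10 genes were also set beside Col1a1, the alpha 1 chain of type I collagen and a main substrate of these enzymes. Col1a1 had the 2nd largest fall of the 21212 probe sets, so a smaller change than this is what nearly any gene would show. Col1a1 had log2 values of 8.31, 8.61, 8.54 and 8.69 in unloaded muscle, against 11.20, 11.24, 10.88 and 10.75 in weight bearing muscle. It fell 5.58-fold, a log2 change of -2.48 (limma adjusted p = 3.68e-06). Within arrays, the log2 value of each gene minus that of Col1a1 was higher in unloaded muscle, by between 1.41 (Serpinh1) and 2.46 (P4ha3). Each gene thus fell less than Col1a1. P4ha1 minus Col1a1, for example, had a mean of -2.03 in weight bearing and -0.47 in unloaded arrays. The groups were separate in all 10 of these comparisons, each with an exact p of 0.0286, the smallest the design allows (adjusted p = 0.0286 over the 10 pairs). Other substrates changed less than Col1a1. Of 15 measured collagen chains and elastin, 13 were lower and 0 higher, with a median log2 change of -0.49, against -0.47 for the 10 genes. Over all probe sets 11.0% were lower. Col1a2 (-2.02), Col6a2 (-1.25) and Col3a1 (-1.25) also fell more than any of the 10 genes. Col5a1 (-0.19) and Col18a1 (-0.11, not called), chosen after their values were seen, changed less than most of the 10 genes. Eln, elastin, singled out after its values were seen as the other main substrate of lysyl oxidases, had a log2 change of 0.07 (limma adjusted p = 0.561).

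Genes that work beside the 10 enzymes were counted from 6 lists chosen from textbook knowledge, with earlier results of these data known. Of 44 measured genes, 26 were lower, 3 higher and 15 not called by limma, with a median log2 change of -0.26. The methods' t-test called 21 lower and 3 higher, and limma after quantile normalization 25 lower and 3 higher. Over all probe sets 11.0% were lower and 12.8% higher (6.48% and 6.57% by the methods' t-test), and each list count below is to be read against these shares. Other members of the same families gave 5 lower and 1 higher of 8. Loxl4, a further lysyl oxidase, fell 1.45-fold. The prolyl 3-hydroxylases P3h3 and P3h2 fell 1.41 and 1.33-fold, and P3h4, a relative that assists lysyl hydroxylation, 1.26-fold. The gene that was higher was P4hb. By the methods' t-test 3 of the 8 were lower and 1 higher.

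Of 8 partners in folding and glycosylation, 6 were lower and 1 higher. Sparc, a collagen-binding matricellular protein, fell 2.05-fold. Crtap, the scaffold of the prolyl 3-hydroxylation complex, fell 1.67-fold, Pdia3, a disulfide isomerase, 1.53-fold and the prolyl isomerase Fkbp14 1.48-fold. Tmem38b, an ion channel of the endoplasmic reticulum and known from human brittle bone disease, was higher by 1.29-fold and was named after its values were seen. Of 7 genes listed under export from the endoplasmic reticulum, 4 were lower and 1 higher. Creb3l1, a transcription factor that activates collagen secretion genes, fell 2.24-fold. Of the COPII coat components Sec24d fell by 0.58 on the log2 scale and Sec23a 1.17-fold. Tango2, which was 1.51-fold higher, is not known to carry collagen in particular.

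Of 7 procollagen-processing genes, 4 were lower and 0 higher. Pcolce, which enhances removal of the C-propeptide, fell 2.13-fold, Bmp1, the C-proteinase, 1.51-fold, the N-proteinase Adamts3 1.64-fold and Pcolce2 1.25-fold. Of 7 other crosslinking and fibre assembly genes, 6 were lower and 0 higher, with Postn, periostin, 4.24-fold lower, Fn1, fibronectin, 2.45-fold, Lum, lumican, 2.24-fold and Pxdn, the peroxidasin that crosslinks type IV collagen, 1.51-fold. Of 7 genes of cofactor supply, covering copper, zinc and ascorbate, 1 was lower and 0 higher, with a median log2 change of -0.03. That gene was the copper importer Slc31a1, which fell 1.17-fold (limma adjusted p = 0.0307, 0.0816 by the methods' t-test). A count of 1 of 7 cannot be set apart from the 11.0% of all probe sets that were lower. Of the genes named in the 6 lists, Pcolce2 (adjusted p = 0.0621) and P3h2 (0.105) also did not pass the methods' t-test with Benjamini-Hochberg adjustment. Whether these genes pass by the study's q-value is not given here.

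**Figure D4:**
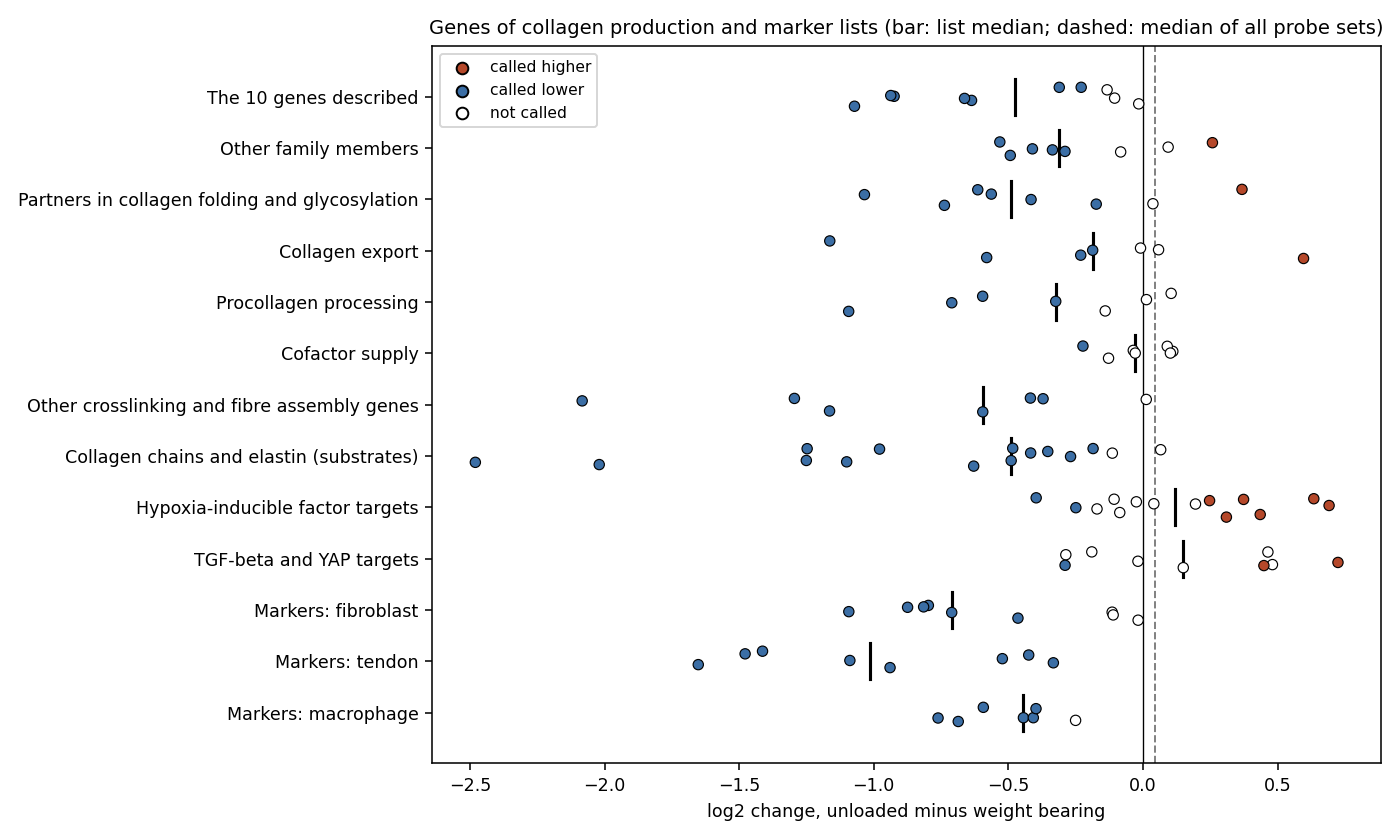
Log2 change (unloaded minus weight bearing, horizontal axis) of each measured gene, 1 point per gene, in the 10 genes described, the lists of collagen production, substrates and targets of regulators, and 3 marker lists, with bars at list medians and filled points where limma called the gene. Most points of collagen production lie below 0, while the cofactor list lies around it.

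Lists of genes that share known regulators with these enzymes were set beside them. P4ha1, P4ha2, Plod2 and Lox are known targets of hypoxia-inducible factors. Of 14 other such targets, 6 were higher and 2 lower, with a median log2 change of 0.12 (2 higher and 3 lower by the methods' t-test). Bnip3, a mitophagy receptor, was 1.61-fold higher, the oxygen-sensing prolyl hydroxylase Egln3 1.55-fold and the glucose transporter Slc2a1 1.35-fold, whereas Vegfa was 1.32-fold lower. Of 9 targets and ligands of TGF-beta and YAP signalling, 2 were higher and 1 lower (1 higher and 0 lower by the methods' t-test). Over all probe sets 12.8% were higher and 11.0% lower (6.57% and 6.48% by the methods' t-test). The counts of this 2nd list are too few to set apart from these shares. Thbs1, thrombospondin 1, was 1.65-fold and the inhibitor Smad7 1.37-fold higher, and the ligand Tgfb1 was 1.22-fold lower. By the methods' t-test with Benjamini-Hochberg adjustment, Slc2a1 (adjusted p = 0.0568), Thbs1 (0.0618) and Tgfb1 (0.0526) did not pass. Whether they pass by the study's q-value is not given here.

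Most markers of matrix-producing and immune cells were lower as well, while 11.0% of all probe sets were lower. Of 9 measured fibroblast markers, 6 were lower and 0 higher, and the mean level of the list per array was 8.88 to 8.96 in unloaded and 9.42 to 9.60 in weight bearing muscle. Thy1 fell 2.13-fold, Pi16 1.83-fold, Fap 1.76-fold and Dpt 1.74-fold, while, named after their values were seen, the fibroblast genes Dcn (log2 change -0.02), Gsn (-0.11) and Pdgfra (-0.11) did not pass the test. Of 8 tendon markers, 8 were lower, with a list mean of 7.80 to 7.97 in unloaded and 8.75 to 8.95 in weight bearing muscle, and Kera fell 3.14-fold and Tnmd 2.79-fold. Of 7 macrophage markers, 6 were lower (4 by the methods' t-test), with a list mean of 7.15 to 7.32 in unloaded and 7.57 to 7.84 in weight bearing muscle. The part of these cell types in the fall of the 7 called genes was not tested.

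Fewer markers of other cell types were called. Of all probe sets, 11.0% were lower and 12.8% higher, and counts of 1 or 2 genes cannot be set apart from these shares. Of 7 endothelial markers 2 were lower (Kdr and Emcn), of 7 markers of pericytes and smooth muscle 1 was lower (Cspg4), and of 6 adipocyte markers 0 were called (0 by the methods' t-test and 0 at an unadjusted limma p under 0.05). The adipocyte hormone Lep had a log2 change of 0.81 (95% interval -0.11 to 1.74, limma adjusted p = 0.180) and the lipid carrier Fabp4 one of -0.07 (adjusted p = 0.495). Adipocyte markers varied between arrays of both groups, with a list mean of 7.89 to 8.99 in unloaded and 7.87 to 8.66 in weight bearing muscle. Of the 8 fibre markers, 1 was higher (Des) and 3 lower (Mb, Acta1 and Pvalb), with log2 changes between -0.21 and 0.24.

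The profiles over the 8 arrays most like each of the 7 fallen genes were looked up among all named genes, as the smallest root mean square difference of log2 values after centring each gene. Loxl1 was closest to C1qtnf3 (0.03) and to Serpinf1 (0.05), which encodes the secreted protein PEDF. Plod2 was closest to Pdia3 (0.04), one of the folding partners above, and to Chordc1 (0.06). Serpinh1 was closest to Ret (0.08) and to Cilp2 (0.08), a cartilage matrix protein. P4ha1 was closest to Bcs1l (0.05), an assembly factor of respiratory complex III, and to Sypl2 (0.05), and Loxl2 to Ptgfrn (0.08) and Sypl2 (0.08). Plod1 was closest to Hdhd2 (0.02) and Fh1 (0.03), the TCA cycle enzyme fumarase, and P4ha2 to Apip (0.03) and Hk1 (0.03), hexokinase 1. That these genes were lower in unloaded muscle follows from how they were chosen.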

How the data were processed

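Affymetrix Mouse Gene ST arrays of 8 RNA samples were processed by the authors with robust multi-array analysis and Brainarray custom probe set files, and the deposited values are log2 expression per probe set. For the release of these files and the version of RMA: not given in the sources used here. All 8 columns were used as deposited, 0 were left out and no filter was applied. Of 21212 probe sets, 18786 had 1 gene symbol, 6 several and 2420 none in the platform annotation, and symbols were updated through RefSeq gene identifiers. For 2 genes with several probe sets the one with the highest mean was used.

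Groups were compared with limma 3.58.1 (lmFit, eBayes, two-sided, Benjamini-Hochberg) in R 4.3.3. Python 3.11.15, pandas 2.3.3, numpy 2.4.6 and scipy 1.17.1 did the rest. No gene set test was run. The fit was tested on simulated data. The genes described and all lists were chosen with earlier results of these data known. Named genes were the 10 genes, up to 4 called genes with the largest change of each other list (in a list with no called gene, the 2 of smallest p), and the 2 most similar profiles of each called gene. Not all genes picked by this rule are named in the text. The tendon markers Tnc and Chad and the macrophage markers Adgre1, Mrc1, C1qb and Csf1r were left out. P4hb, Tmem38b, Eln, Col5a1, Col18a1, Gulo, Dcn, Gsn and Pdgfra fall outside that rule and were named after their values were seen. Listed genes without a value (9 in all) are not analysed here. The number of arrays limits the precision.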

Additional observations from a re-analysis of the deposited data

Results flagged for a closer look

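In 126 groups of 4 values, each of a single gene in the arrays of a single condition, 3 values stood apart by Dixon's criterion. Chance alone is set to give about 1 in 20 groups. Plod3 was low in weight bearing replicate 3 (7.59, 0.13 below the next array), which is the array that made its groups overlap. Bmp1 (8.18) and Col3a1 (7.30) were low in unloaded replicate 1, both in the direction of the change between the groups.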

How the results depend on the processing

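The count of 7 lower and 0 higher genes was the same under the methods' t-test (Benjamini-Hochberg, Storey's q-value or linear scale), trend and robust variance, array weights, quantile normalization, centred array medians, removal of the dimmest 25% of probe sets, and with each array left out. It was 6 with a minimum change of 1.2-fold and 6 at an adjusted p under 0.01, where P4ha2 was lost. It was also 6 without the dimmest 50%, where Plod2 and P4ha3 were removed and 8 of the 10 genes were tested. Plod2, a called gene, had a mean level at the 48.4th percentile of all probe sets. The log2 change of P4ha3, which did not pass the test, ran from -0.0724 to 0.0195 with 1 array left out and turned positive without unloaded replicate 1 (0.0166) and without weight bearing replicates 1 (0.0131) and 2 (0.0195), with limma adjusted p between 0.447 and 0.963. P4ha2 minus P4ha3 was -0.11 after quantile normalization (exact test, adjusted p = 0.114). The causes were not tested. Of 322 alternative values, 318 were counted as the same as the main one. For log2 changes and for pairs tested again, this meant the same direction and side of the threshold. For counts, a small move such as 7 to 6 was still taken as the same. Family pairs with 1 array left out were taken as the same where they moved by less than the larger SD within a group, and none changed direction. With the replicate block the family pairs equal the main values by construction, so these could not differ and are no evidence.

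Replicate numbers were not taken to pair the arrays, since the labels give no shared origin and 1 of 4 same-numbered pairs had deviations correlated above 0.1. As a hint the other way, 6 of 8 arrays correlated best with their own number. With the replicate number as a block, 7 genes were lower and 0 higher, and over all probe sets 2455 were higher and 2213 lower, against 2715 and 2324 without it. The methods' t-test called 1393 higher and 1374 lower with Benjamini-Hochberg adjustment, and 3033 higher and 2403 lower with Storey's q-value. Leaving out unloaded replicate 3 gave 1802 higher and 1922 lower by limma. With 4 arrays a group, exact tests cannot give a p below 0.0286, and P4ha3 lay near the dim end of the arrays.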
